A study of Mus musculus with 2 samples.

Results

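The genes described here are the proteasome genes of the mouse, taken as every row of the deposited gene lists whose symbol starts with Psma to Psmg followed by a digit. There were 56 such rows among 55357 in both libraries. Of these, 50 had at least 50 UMIs (unique molecular identifiers, counts of captured RNA molecules) summed over the libraries and were detected in 1% or more of cells in WT, KO or both. The 6 rows below that limit were Psmb11, the catalytic subunit of the thymic proteasome, and 5 pseudogenes. Psmc3ip and Psme3ip1 match by symbol alone and are not proteasome subunits.

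The study asked how Runx3, a transcription factor of lymphoid and myeloid cells, bears on natural killer (NK) cells in colorectal cancer, using mice lacking the gene with tumour models, per the series' design text. Tissue from the colon, as labelled, gave 1 single-cell library of genotype RUNX3 wt (labelled WT) and 1 of genotype RUNX3 ko (labelled KO). The labels used here give no age, sex, strain, treatment, number of mice, deleted part of Runx3 or tumour model for either library. With 1 library per group there is no replicate spread, so no difference between the libraries can be tested, and all intervals are 95% intervals that cover counting error only.

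Of the deposited barcodes, 8800 of 8800 in WT and 5513 of 6573 in KO passed the cell filter, so the libraries were unlike before it. After filtering, the WT library held 8343 cells with 75985426 UMIs and the library labelled KO held 5194 cells with 54840011 UMIs. The median depth was 8281 and 9350.5 UMIs per cell, and 17 cell barcodes occurred in both libraries. Runx3 itself was counted at 255 CPM (UMIs per 1000000 UMIs of the group) in WT and 192 CPM in the library labelled KO, so the counts do not settle the label, and the deleted part of the gene is not known here. Markers of macrophages and monocytes were abundant (16594 CPM summed over 12 genes in WT and 12218 CPM in KO), whereas 8 epithelial markers of the labelled colon summed to 37.6 CPM in WT and 39.3 CPM in KO. The libraries also differed in the sex of their cells. In WT, 79.5% of cells carried Y-linked transcripts without Xist (male-type) and 0.012% carried Xist alone (female-type). In the library labelled KO, 24.1% were male-type, 54.7% female-type and 8.07% carried both.

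The proteasome is the protease that degrades ubiquitin-tagged proteins. Its 20S core is a barrel of alpha and beta subunits, and 3 of the beta subunits carry the active sites: Psmb6 (beta 1), Psmb7 (beta 2) and Psmb5 (beta 5). Interferon gamma induces alternative catalytic subunits, Psmb9, Psmb10 and Psmb8, which take the places of Psmb6, Psmb7 and Psmb5 in newly assembled particles. That form, the immunoproteasome, changes which peptides are cut for display on MHC class I. The PA28 activator, a ring of Psme1 and Psme2, is induced by the same cytokine, and haematopoietic cells express these genes constitutively. The 19S particle (Psmc ATPases and most Psmd subunits) recognises and unfolds ubiquitinated proteins, and Psmg proteins assist assembly of the core.

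The immune genes are clustered in the genome. In the mm10 build with GENCODE M21 annotation, Psmb9, Tap1, Psmb8 and Tap2 lie side by side in 34335 bases of the MHC (chr17:34181987-34216321), with the annotated spans of Psmb9 and Tap1, which are on opposite strands, overlapping by 212 bases. Reads from that overlap cannot be assigned where counting ignores strand, and no source used here states the counting rule. Psme1 and Psme2 lie within 12991 bases of chr14 (chr14:55578123-55591113). Psmb10 is apart from both, on chr8 (chr8:105935735-105938444), and the constitutive genes Psmb5, Psmb6 and Psmb7 are on chr14, chr11 and chr2.

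Promoter sequence was available for 43 of the 56 rows in RefSeq windows of GRCm38.p6, from 250 bases before to 50 bases after the start of the gene. Both strands were searched for 3 motifs, with N for any base: the interferon-stimulated response element as GAAA, 2 bases of any kind and GAAA again, the gamma-activated site as TTCNNNGAA, and the antioxidant response element, to which Nfe2l1 and Nfe2l2 bind, as TGACNNNGC. Overlaps between motifs were allowed. They occurred in 3.45%, 8.33% and 12.4% of all 32544 distinct promoter windows. Among members, the interferon-stimulated response element was found in 5 of 43 (Psmb3, Psmd4, Psmd9, Psme1, Psmg4), TTCNNNGAA in 3 (Psmb8, Psmd2, Psmg1) and TGACNNNGC in 6 (Psmb5, Psmb6, Psmc6, Psmd12, Psmd9, Psme4). None of the 3 was found in the windows of Psmb9, Psmb10 and Psme2, which says only that these letters are absent there, and Psmb7 had no window. Stretches upstream of annotated exons are printed 5′ to 3′ on the gene's strand for constitutive genes and for immune genes, with motif matches in capitals, because these are the genes whose levels are set against each other in the results.
Psmb5 (chr14:54618023-54618142, minus strand): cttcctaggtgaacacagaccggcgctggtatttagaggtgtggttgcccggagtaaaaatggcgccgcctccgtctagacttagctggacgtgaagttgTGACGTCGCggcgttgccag
Psmb6 (chr11:70525237-70525356, plus strand): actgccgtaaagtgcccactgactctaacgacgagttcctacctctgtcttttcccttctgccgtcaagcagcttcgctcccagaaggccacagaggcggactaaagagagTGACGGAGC
Psmb10 (chr8:105938445-105938564, minus strand): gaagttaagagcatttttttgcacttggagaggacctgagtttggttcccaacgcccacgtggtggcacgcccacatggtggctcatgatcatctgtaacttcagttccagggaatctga
Psme2 (chr14:55591114-55591233, minus strand): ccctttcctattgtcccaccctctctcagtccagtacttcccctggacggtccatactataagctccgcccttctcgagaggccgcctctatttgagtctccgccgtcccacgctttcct
For Psmb8 and Psme1, only the 25 bases around the match are printed, since both matches lie in annotated exons.
Psmb8 (chr17:34198090-34198114, plus strand): ctccgctgTTCCCAGAAgatgcccc
Psme1 (chr14:55578496-55578520, plus strand): gctgtgcTTTCGCTTTCccttcccg
The match begins 97 bases before the RefSeq start of the window's transcript in Psmb8, inside the span that GENCODE gives the gene, and 10 bases into the RefSeq transcript in Psme1, where it lies on the minus strand. In Psmb5 and Psmb6 it begins 47 and 9 bases before the start.

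Over all cells, each of the 5 interferon-induced genes, the immune catalytic subunits and PA28, had a lower level in the library labelled KO than in WT. Psmb8, the beta 5 subunit of the immunoproteasome, was counted at 471 CPM in WT and 378 CPM in KO. Psmb9 was counted at 196 and 171 CPM, and Psmb10 at 149 and 126 CPM. Of the PA28 genes, Psme1 was counted at 394 and 370 CPM and Psme2 at 294 and 249 CPM. The shortfall was largest for Psmb8 and smallest for Psme1.

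On the scale of log2(CPM + 5), the KO over WT differences were −0.31 for Psmb8, −0.19 for Psmb9, −0.24 for Psmb10, −0.09 for Psme1 and −0.24 for Psme2. Their median was −0.24, beside a median of −0.02 over the 13806 genes tested. The ratio of Psmb8 was 0.802 (95% interval 0.788 to 0.816). The fold limit used throughout was a log2 difference of 0.32 in either direction. None of the 50 members passed it, where 4.64% of all genes were lower and 3.9% higher by that much. At a stricter fold of 1.5, which 0.826% of genes passed downward and 1.09% upward, the count was necessarily 0, since none passed the lower fold. At a fold of 1.1, chosen after the values were seen, 9 of 50 members were lower (Psmb8, Psmb9, Psmb10, Psme2, Psme2b, Psma1, Psmd13, Psme4 and Psmf1) beside 21.7% of all genes, and 5 were higher (Psma2, Psma5, Psma6, Psmd6 and Psmd12) beside 15.2%. A share of members close to that of all genes says nothing about the family as a whole.

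The constitutive catalytic subunits were at nearly equal levels in the libraries. Psmb5 was counted at 106 CPM in WT and 108 CPM in KO, Psmb6 at 153 and 155 CPM, and Psmb7 at 79.9 and 84.8 CPM. Their log2 differences were 0.03, 0.01 and 0.08. Summed, the 3 constitutive genes gave 339 and 347 CPM, whereas the 3 immune genes gave 816 and 675 CPM.

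The immune share of catalytic transcripts, Psmb8 + Psmb9 + Psmb10 over those plus Psmb5 + Psmb6 + Psmb7, was 70.7% (70.4 to 71.0) in WT and 66.1% (65.7 to 66.4) in KO. The share needs no scaling between libraries, but it sets genes of unlike length and capture side by side, so its level is not a count of particles and only differences between cells are read from it. All 3 pairs were lower in KO. Psmb8 against Psmb5 gave 81.7% in WT and 77.8% in KO, Psmb9 against Psmb6 gave 56.1% and 52.6%, and Psmb10 against Psmb7 gave 65.1% and 59.7%.

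Summed levels of the rest of the particle differed little. The alpha ring (Psma1 to Psma7), the outer gate of the core, summed to 1183 CPM in WT and 1203 CPM in KO, with members on both sides of 0: Psma5 and Psma6 differed by a log2 of 0.18 each, Psma2 by 0.15 and Psma1 by −0.16. The 4 structural beta genes (Psmb1 to Psmb4) summed to 776 and 784 CPM. The 6 ATPases of the 19S base summed to 396 and 397 CPM, and the 11 further 19S subunits to 1072 CPM in both libraries. Within the latter, Psmd12 and Psmd6, both subunits of the lid, were the highest (log2 0.14 each), and Psmd13, also a lid subunit, was the lowest (−0.18). Psmd3, a lid subunit, Psmd9, a chaperone of 19S assembly, and Psmc4, an ATPase, completed the lower end (−0.10, −0.09 and −0.09).

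Among regulators outside the interferon-induced set, Psme3, the nuclear PA28 gamma, was counted at 38.1 CPM in WT and 38.2 CPM in KO. Psme4, the PA200 activator, was counted at 117 and 105 CPM (log2 −0.15). Psmf1, known as the proteasome inhibitor PI31, was counted at 20.8 and 16.5 CPM (log2 −0.26). The core assembly chaperones Psmg1, Psmg3 and Psmg4 were slightly higher in KO (log2 0.11, 0.11 and 0.13) and Psmg2 was not (−0.04). Psma8, the testis alpha subunit, was at 1.62 and 1.37 CPM. Psmb11 had 6 UMIs in WT and 1 in KO. Psme2b, a near-identical copy of Psme2, was at 10.2 and 8.1 CPM (log2 −0.22), and reads could have been divided between the copies, so its value is uncertain. Psmc3ip was at 5.79 and 6.25 CPM.

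**Figure D1:**
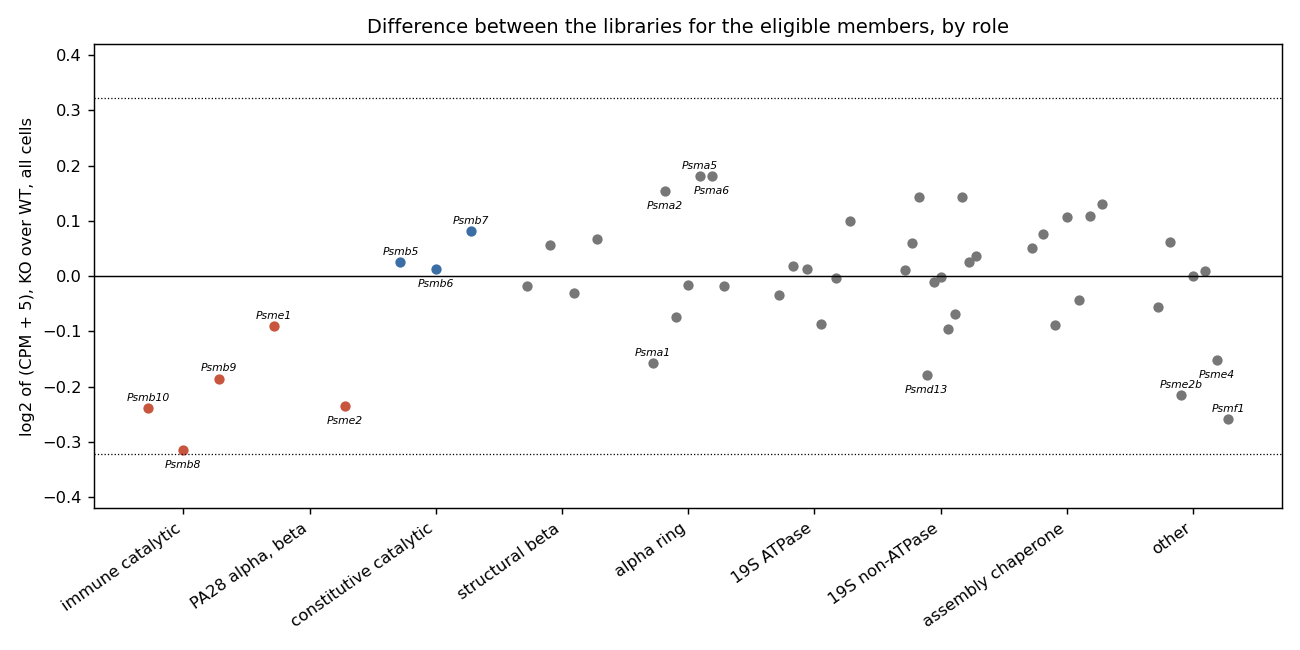
Each point is 1 of the 50 members above the detection limit, placed by role, with its log2 ratio of CPM + 5 in the library labelled KO over WT on the vertical axis; dotted lines mark the fold limit. All 5 immune catalytic and PA28 points lie below 0 (−0.31 to −0.09) and the 3 constitutive catalytic points lie between 0.01 and 0.08.

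Over all cells, sex type moved with this difference. In male-type cells the immune share was 71.2% (70.9 to 71.5) in WT and 70.7% (69.9 to 71.4) in KO, and in KO cells of female type it was 63.8% (63.2 to 64.3). The summed immune catalytic genes were at 829 CPM in male-type WT cells, 794 CPM in male-type KO cells and 626 CPM in female-type KO cells. The constitutive sum was 335, 329.8 and 356 CPM. Female-type over male-type KO cells had 2 of 50 members lower past the limit (Psmb8 and Psmb9) and 0 higher, beside 2.12% and 4.72% of genes. Female-type KO over male-type WT cells had 4 lower (Psmb8, Psmb9, Psmb10 and Psme2) and 0 higher, beside 6.04% and 5.73%. Male-type KO over male-type WT cells had 0 in either direction, beside 8.43% and 4.28%. The log2 difference of the 5 immune genes between the libraries was −0.22 in all cells and −0.03 in male-type cells alone. The medians over all genes beside them were −0.02 and −0.07. The WT library holds 0.012% female-type cells, so for female-type cells genotype label, sex and source animal cannot be told apart. Outside macrophages and monocytes, types with at least 20 cells of each sex type in KO gave overlapping intervals. The share was 73.2% in female-type and 70.9% in male-type CD8 T cells of KO, and 84.6% and 82.6% in regulatory T cells. In type 2 dendritic cells it was 72.8% and 74.8%. Beyond these values the part of sex type was not tested.

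Macrophages and monocytes, gated by at least 6 of 12 markers, were the most numerous type, with 5255 cells in WT and 3375 in KO. There, Psmb8 was counted at 460 CPM in WT and 369 CPM in KO, Psmb9 at 184 and 160, Psmb10 at 155 and 130, Psme1 at 391 and 368, and Psme2 at 282 and 244 CPM. All 5 were lower in KO, as over all cells. None of 48 members passed the fold limit, beside 5.33% of genes lower and 5% higher in these cells. The immune share was 70.5% (70.1 to 70.9) and 65.3% (64.8 to 65.7).

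Within this gate the split by sex type was sharper than over all cells. Male-type macrophages gave an immune share of 70.6% (70.2 to 71.0) in WT and 70.7% (69.8 to 71.5) in KO, and female-type macrophages of KO gave 61.9% (61.2 to 62.5). The intervals of the male-type cells of the 2 libraries overlapped, and the female-type cells were 8.81 points below the male-type cells of their own library. Psmb8 was at 461 CPM in male-type WT, 446 CPM in male-type KO and 327 CPM in female-type KO macrophages. Psme2 was at 281, 280 and 220 CPM in the same order, and Psme1 at 391, 425 and 336 CPM.

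The constitutive partners were not lower in female-type cells. Psmb5 was at 101 CPM in male-type WT, 98.6 CPM in male-type KO and 112 CPM in female-type KO macrophages, Psmb6 at 153, 147 and 165 CPM, and Psmb7 at 78.5, 82.2 and 86.7 CPM. Female-type over male-type KO macrophages gave log2 differences of 0.17, 0.16 and 0.07 for these 3 genes and −0.44, −0.41 and −0.33 for Psmb8, Psmb9 and Psmb10. The median over all genes was 0.07, so Psmb7 stood at the median and Psmb5 and Psmb6 above it. In this comparison 5 of 49 members were lower past the fold limit, beside 3.43% of all genes, and the 5 were Psmb8, Psmb9, Psmb10, Psme1 and Psme2. Psmd5 and Psmg3, both assembly chaperones, were higher by that much, beside 7.03% of all genes. In male-type KO over male-type WT macrophages 0 of 48 members passed, beside 8.24% lower and 4.67% higher. Female-type KO over male-type WT macrophages had 4 of 49 lower (Psmb8, Psmb9, Psmb10 and Psme2) and 0 higher, beside 6.86% and 6.88%. The 3 comparisons share their cells pairwise.

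**Figure D2:**
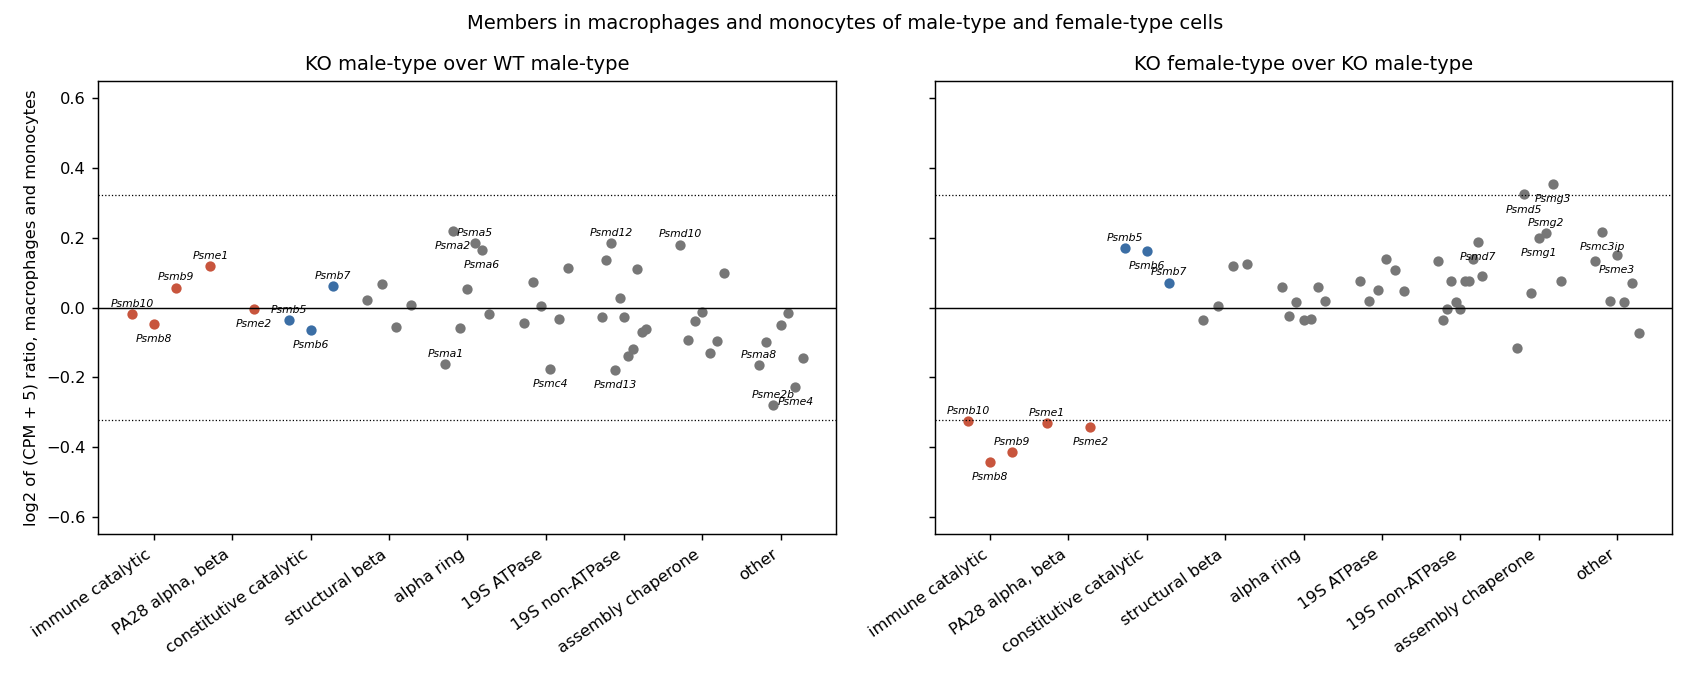
Log2 ratios of CPM + 5 in macrophages and monocytes by role, for male-type cells of KO over male-type cells of WT on the left and female-type over male-type cells of KO on the right; dotted lines mark the fold limit. On the left the immune genes scatter around 0 (−0.05 to 0.12) and on the right they lie at −0.44 to −0.33, with the 3 constitutive catalytic genes at 0.07 to 0.17.

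Runx3 was counted at 223 CPM in male-type WT, 188 CPM in male-type KO and 158 CPM in female-type KO macrophages. Nlrc5, the MHC class I transactivator, was at 64.5, 53.8 and 41.9 CPM. Tap1, a subunit of the peptide transporter and neighbour of Psmb9, was at 141, 115 and 82.4 CPM. The median depth of these cells was 9648.5, 10901 and 10173.5 UMIs, so female-type KO cells were shallower than male-type KO cells. With every cell thinned to 1000 UMIs, the share of female-type minus male-type KO macrophages was −7.84 points. Beyond these values the part of depth was not tested.

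The sex-type difference was unlike between macrophage clusters, though the difference between clusters was not tested. Clusters were made without the members. The widest gap was in a cluster led by Ctsk and Acp5, with 48.1% (44.4 to 51.8) in female-type KO, 77.0% (69.0 to 83.8) in male-type KO and 68.4% (64.6 to 71.9) in male-type WT macrophages. The male-type KO value there rests on 23 cells, with 104 immune and 31 constitutive UMIs. In a cluster led by Fcrls and Stab1, which held 30.7% of female-type KO, 5.08% of male-type KO and 2.35% of male-type WT macrophages, the immune share was 56.2%, 66.0% and 66.4% in that order. In a cluster led by Arg1 and Mmp12 it was 58.8%, 64.5% and 64.7%. In a cluster led by Cxcl9 and Gbp2, genes induced by interferon gamma, it was 74.6% (72.9 to 76.3), 76.2% (74.6 to 77.7) and 75.2% (74.3 to 76.0), so the 3 groups were close there. A cluster led by Cxcl3 and Slpi, with 130 cells in KO and 1 in WT, had the lowest share of any macrophage cluster, 34.1% over KO, and in it male-type (34.1%) and female-type (31.3%) macrophages overlapped in their intervals. A cluster led by the heat shock genes Hspa1a and Hspa1b was the exception in direction, with 66.6% (62.0 to 71.0) in female-type and 63.9% (58.1 to 69.4) in male-type KO macrophages.

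For each of Psmb8, Psmb9, Psme1 and Psme2 the highest level was in a dendritic type. Type 1 dendritic cells, which cross-present antigen to CD8 T cells, were highest for Psmb8 (951 CPM in WT, 913 CPM in KO) and Psmb9 (557 and 610 CPM). Mature dendritic cells, marked by Ccr7 and Fscn1, were highest for Psme1 (1043 and 1099 CPM) and Psme2 (944 and 946 CPM). Regulatory T cells came next after them for Psmb9 (355 and 357 CPM) and, in WT, for Psme2 (447 CPM). Type 2 dendritic cells had Psmb8 at 658 and 546 CPM and Psme1 at 529.5 and 582 CPM. The leading type of each of the 4 genes was the same in both libraries.

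**Figure D3:**
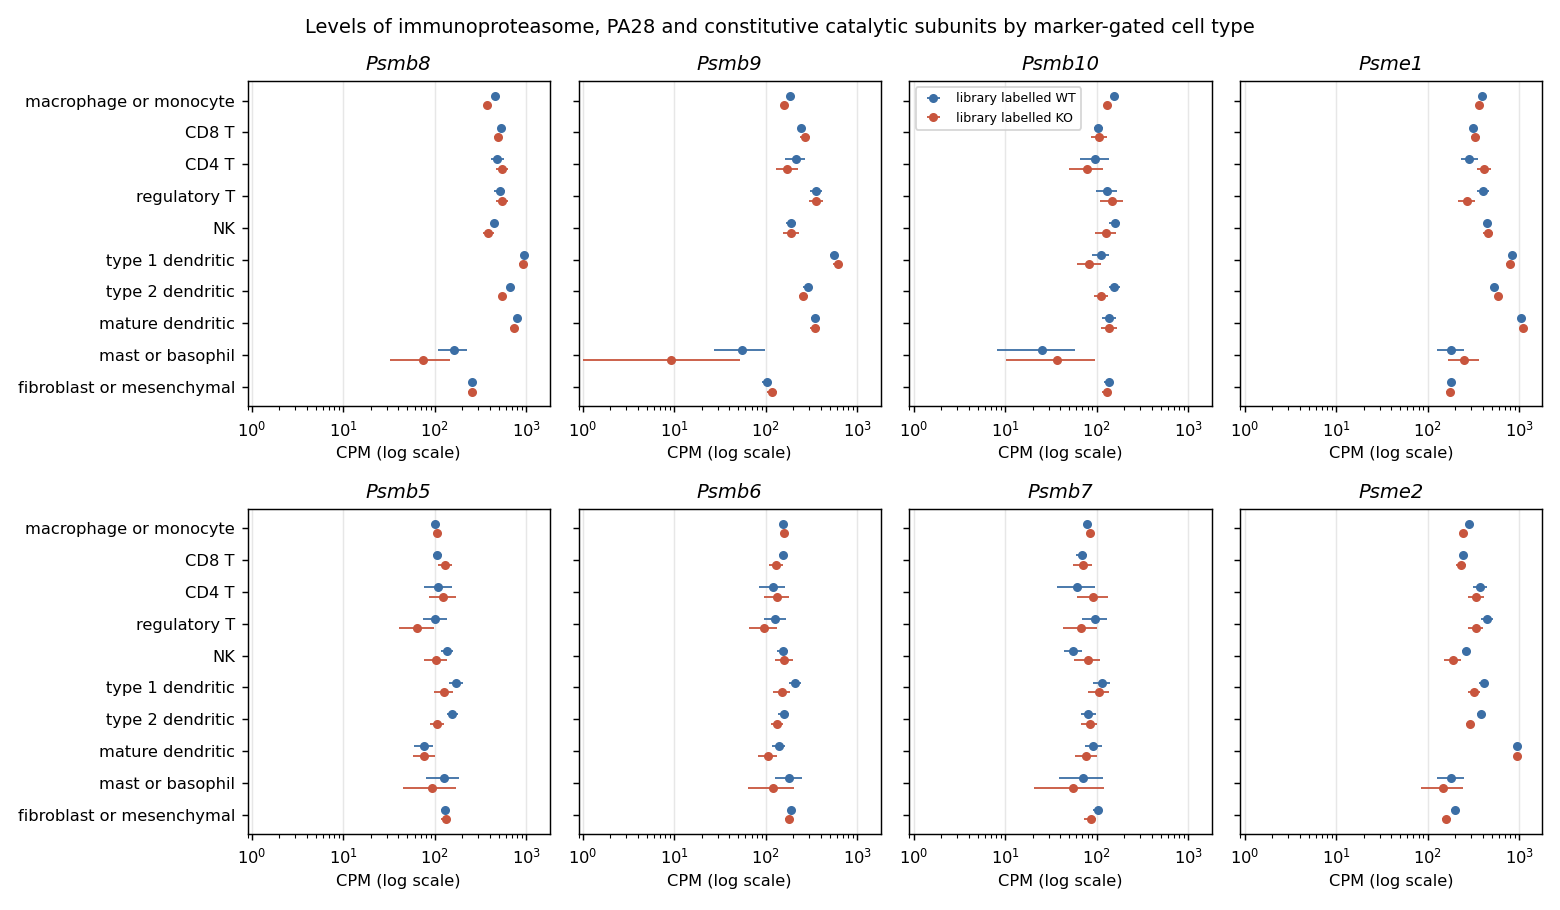
CPM on a log axis for 8 genes in 10 marker-gated cell types, blue for the WT library and red for the library labelled KO, with 95% Poisson intervals cut at 1 CPM. Psmb8, Psmb9, Psme1 and Psme2 spread widely over types, whereas Psmb5, Psmb6 and Psmb7 stay within a narrow band.

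Psmb10 did not follow Psmb8 and Psmb9 across types. Its level was 111 CPM in WT and 83.2 CPM in KO in type 1 dendritic cells, below the 155 and 130 CPM of macrophages. It was 158 CPM in WT and 126 CPM in KO NK cells. Against Psmb7 it took 49.2% (41.6 to 56.7) of the pair in WT type 1 dendritic cells and 44.1% (34.3 to 54.3) in KO, while Psmb9 took 72.6% and 80.3% of its pair and Psmb8 84.8% and 87.9%. The highest against the lowest type differed by a log2 of 2.53 for Psmb8, 3.22 for Psmb9, 2.44 for Psmb10, 2.50 for Psme1 and 2.36 for Psme2 in WT. For Psmb5, Psmb6 and Psmb7 it was 1.12, 0.80 and 0.98. Mast cells, where Psmb10 rested on 5 UMIs, were the lowest type for each of the 5 immune genes in WT. Over the 9 other types, an alternative added after the values were seen, the WT differences were 1.86 for Psmb8, 2.39 for Psmb9, 2.49 for Psme1 and 2.22 for Psme2. For Psmb10 the difference was 0.69, smaller than for each constitutive gene, and in KO it was 0.86, beside 0.97, 0.87 and 0.61 for Psmb5, Psmb6 and Psmb7.

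In mature dendritic cells Psmb5 was at 75.6 CPM in WT, its lowest level of any type there, and at 76.8 CPM in KO. Psmb7 was not low, at 92.3 and 76.8 CPM, and the constitutive sum was 307 and 259 CPM, beside 334 and 351 CPM in macrophages. Their immune share was the highest of the gated types, 80.6% (78.6 to 82.5) and 82.4% (79.9 to 84.7). In type 1 dendritic cells the share was 76.6% (74.5 to 78.6) and 80.8% (78.4 to 83.1), and in type 2 dendritic cells 73.7% and 73.9%. From the highest share down, neighbouring types overlapped in their intervals, except CD8 T cells above macrophages in WT, type 1 above type 2 dendritic cells in KO, and mesenchymal and mast cells, which each stood below their upper neighbour in both libraries. The assembly chaperone Psmg4 was also highest in mature dendritic cells (163 CPM in WT, 176 CPM in KO), whereas Psmd7, a subunit of the 19S lid, was highest in fibroblast or mesenchymal cells (252 and 222 CPM).

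CD8 T, CD4 T and NK cells had shares below those of the dendritic types and above that of mesenchymal cells in both libraries, with intervals that overlapped those of type 2 dendritic cells except for NK cells in KO. CD8 T cells gave a share of 72.7% (71.2 to 74.1) in WT and 72.4% (69.7 to 75.0) in KO. CD4 T cells gave 73.2% (68.1 to 77.9) and 69.4% (64.3 to 74.2), and NK cells, the subject of the series' title, gave 69.7% (67.3 to 72.0) and 67.2% (63.0 to 71.2). In these 3 types the intervals of the libraries overlapped. In NK cells Psmb8 was counted at 447 CPM in WT and 385 CPM in KO, Psmb9 at 187 and 190 CPM, and Psme2 at 263 and 188 CPM. The NK gate allowed up to 3 T cell markers. Its cells carried medians of 2 T cell and 3 macrophage markers in both libraries, so these values may not be of NK cells alone.

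Regulatory T cells had a higher immune share in KO than in WT, on few cells. Their share was 75.4% (71.7 to 78.9) in 99 WT cells and 82.1% (78.3 to 85.5) in 76 KO cells, and the constitutive genes rested on 141 and 81 UMIs. The intervals overlapped, and the share was also higher in KO in each dendritic type and in mesenchymal cells. Psmb5 was at 101 and 64.7 CPM and Psmb6 at 127 and 95.6 CPM, while Psmb8 was at 514 and 543 CPM and Psmb9 at 355 and 357 CPM. The PA28 genes were lower in KO, Psme1 at 401 and 267 CPM and Psme2 at 447 and 335 CPM. Summed, the 5 immune genes were thus lower in KO here too (ratio 0.893, 0.801 to 0.994), as was the constitutive sum (325 and 228 CPM). Of 29 members 15 were lower past the fold limit and 0 higher, beside 24.1% and 16.2% of all genes. The summed plasma cell markers were at 89.9 CPM in the WT and 2899 CPM in the KO cells of this gate, with 4 of 5 markers at 0 in WT and 1 of 5 at 0 in KO, and their part in the result was not tested.

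Fibroblast or mesenchymal cells had a low immune share in both libraries, 54.0% (52.0 to 55.9) in WT and 55.6% (53.3 to 57.9) in KO. Psmb8 was at 258 and 252 CPM there, while Psmb6 was at 191 and 179 CPM. In WT, 93.2% of these cells carried neither Y-linked transcripts nor Xist at a median depth of 13893 UMIs, against 17.5% of macrophages at 9126 UMIs. Whether the gate holds tumour cells, host fibroblasts or both was not tested, so its share is that of the gated cells and not of a named host tissue. Mast cells or basophils were lower still, 39.0% (30.4 to 48.2) and 31.0% (17.6 to 47.1), but on 123 and 42 catalytic UMIs.

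Within the smaller types more genes passed the fold limit than in macrophages, and the members' counts are given beside that background. CD8 T cells had 3 of 46 members lower and 2 higher in KO, beside 15.8% and 9.85% of genes, and CD4 T cells 0 of 25 lower and 6 higher, beside 19.6% and 18.2%. NK cells had 11 of 42 lower and 1 higher, beside 18.8% and 12.7%. Type 1 dendritic cells had 11 of 39 lower and 2 higher, beside 19.5% and 15.2%, type 2 dendritic cells 8 of 44 and 1, beside 18.5% and 10.1%, and mature dendritic cells 4 of 38 and 4, beside 20.5% and 12.5%. Mesenchymal cells had 5 of 49 lower and 0 higher, beside 14.5% and 6.78%, and mast cells 4 of 8 and 1, beside 28.8% and 21.7%. These types held between 20 and 608 cells per library, and nothing particular to the members is read from these counts.

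**Figure D4:**
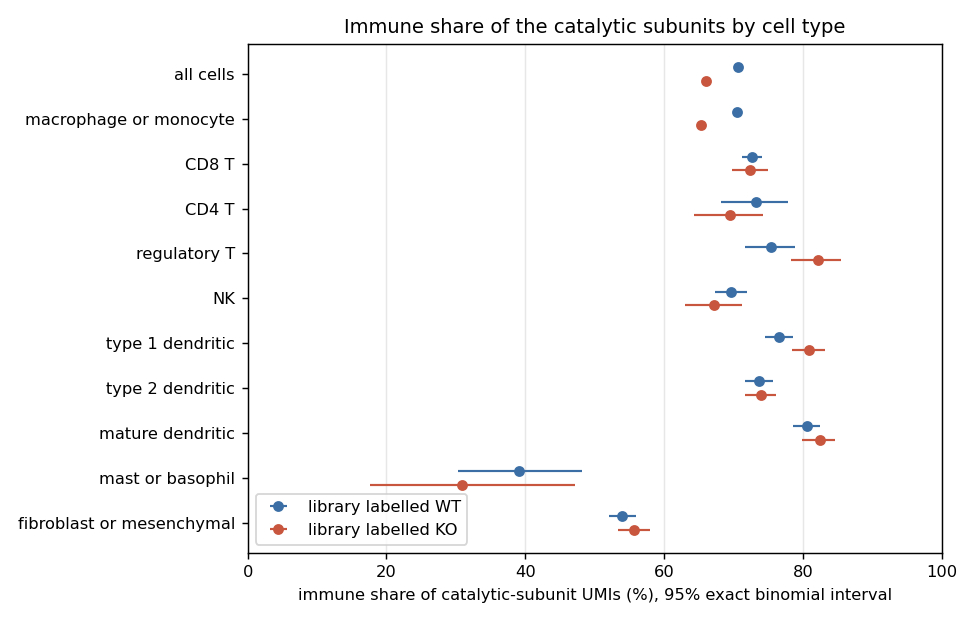
Immune share of catalytic-subunit UMIs in percent for all cells and 10 gated cell types, blue for WT and red for the library labelled KO, with 95% exact binomial intervals. Macrophages or monocytes are the gated type whose intervals do not overlap, 70.5% against 65.3%, and mesenchymal and mast cells lie lowest.

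In macrophages the immune share was higher where the interferon response was higher. Cells were ranked by their share of UMIs from 24 interferon response genes, none of them a member. Each library was cut by itself into 5 equal bins, which are ranges of a score and not cell types. The lowest bin reached up to 476 CPM of the list in WT and 322 CPM in KO, so its limits were unlike. The score and the members come from the same cells and libraries. In WT the immune share was 62.6% (61.6 to 63.7) in the lowest and 75.4% (74.6 to 76.0) in the highest bin, and in KO 51.0% (49.7 to 52.4) and 74.1% (73.2 to 74.9). The summed immune catalytic genes went from 545 to 1074 CPM in WT and from 391 to 1000 CPM in KO. The constitutive sum went from 325 to 351 CPM and from 375 to 350 CPM. Psme1 and Psme2 together went from 469 to 905 CPM in WT and from 400 to 884 CPM in KO. With limits common to both libraries, the immune share in the lowest bin was 61.8% in WT and 52.8% in KO. In the highest bin it was then 75.2% and 73.9%.

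With bin limits common to the 3 groups of macrophages, sex types were compared at like sums of the interferon list. Abundant genes weigh most in that sum. Over all cells, Cxcl9 and Cxcl10 were at 545 and 275 of 2000 CPM in WT, and at 522 and 339 of 1839 CPM in KO. A like sum is thus not a like level of each gene. In the lowest bin the share was 61.8% (60.5 to 63.1) in male-type WT, 56.8% (54.2 to 59.5) in male-type KO and 51.0% (49.7 to 52.4) in female-type KO macrophages. In the third bin it was 69.8%, 69.8% and 64.6%, and in the highest 75.3%, 76.7% and 72.7% (71.2 to 74.1). Female-type cells were the lowest of the 3 groups in each of the 5 bins, and 31.5% of them fell in the lowest bin against 18.5% of male-type KO and 15.1% of male-type WT macrophages.

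**Figure D5:**
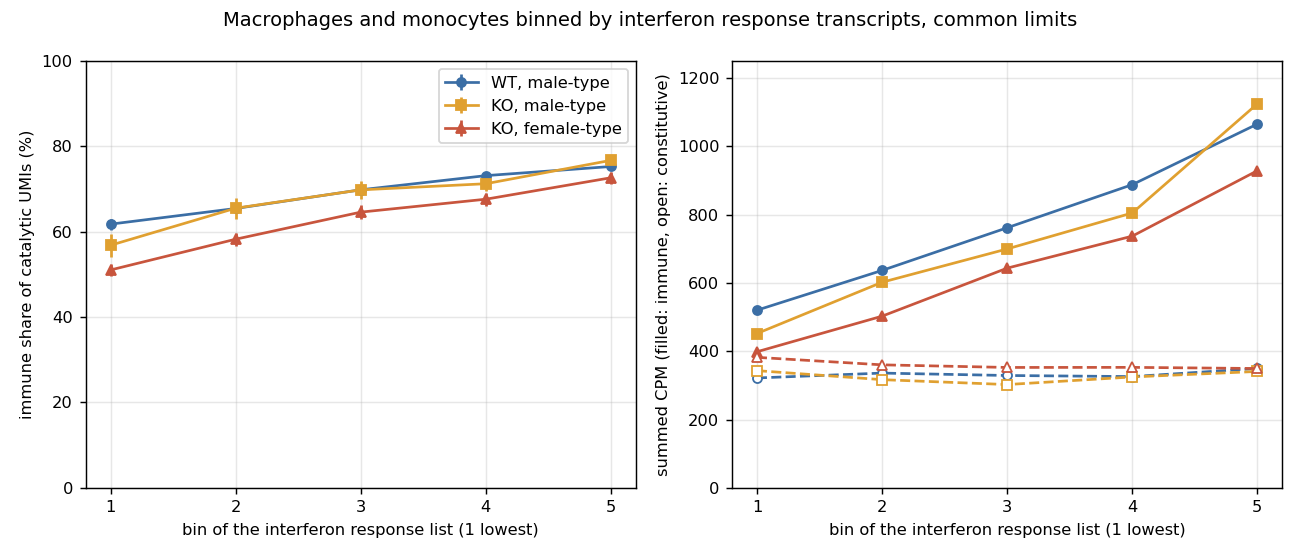
Left, immune share of catalytic UMIs in percent with 95% exact binomial intervals, and right, summed CPM of immune (filled) and constitutive (open) catalytic genes, for macrophages and monocytes in 5 bins of the interferon response list with common limits. The immune sum is higher in each successive bin in every group, the constitutive sum stays between 302 and 382 CPM, and female-type KO cells have the lowest share in every bin.

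Genes that work with the proteasome were counted from lists chosen with earlier results known. Of 17 genes of peptide loading and MHC class I, 5 were lower past the fold limit over all cells in KO and 0 higher (median log2 −0.15), beside 4.64% and 3.9% of all genes. Tap1 was at 142 CPM in WT and 98.4 CPM in KO (log2 −0.50), Tap2 at 60.2 and 53.7 CPM (−0.15), the loading factor Tapbp at 229 and 190 CPM (−0.26) and Nlrc5 at 89.1 and 68.7 CPM (−0.35). The nonclassical class I gene H2-Q7 was the lowest (−0.54), and B2m, the class I light chain, the highest (0.12). By sex type, Tap1 was at 143 CPM in male-type WT, 119 CPM in male-type KO and 88.1 CPM in female-type KO cells, and Nlrc5 at 88.3, 72.0 and 60.1 CPM. Both were thus lower in KO in male-type cells too, and lowest in female-type cells. H2-Q genes are close copies of one another, so their single values are uncertain.

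Of 23 detected interferon response genes 6 were lower and 0 higher (median −0.17), beside 4.64% and 3.9% of all genes. Summed over all cells, the list was at 1999 CPM in male-type WT, 2313 CPM in male-type KO and 1499 CPM in female-type KO cells, so it was higher in KO than in WT among male-type cells and lower in female-type cells. Irf7 was the lowest (−0.88) and Cxcl10 the highest (0.30), with Irf1 at −0.01. Of 8 genes of interferon gamma signalling, 1 was lower: Ifng itself, at 47.2 CPM in WT and 24.0 CPM in KO (−0.85), beside Jak2 as the highest (0.07). CD8 T cells, which make Ifng, were 7.29% of WT and 2.89% of KO cells. Within CD8 T cells Ifng was at 525 CPM (499.99 to 551) in WT and 493 CPM (449.5 to 539) in KO. Within NK cells it was at 120.3 CPM (102 to 141) and 104 CPM (77.8 to 137). CD4 T cells, 0.887% of WT and 1.29% of KO cells, had it at 466 CPM (393 to 548) and 348 CPM (285 to 421). The intervals of the libraries overlapped in each of these types. The part of cell numbers in the difference of Ifng was not tested.

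None of 6 genes of proteasome transcription and assembly passed the fold. Nfe2l1, the factor that restores proteasome levels, was at 36.4 CPM in WT and 42.2 CPM in KO (log2 0.19), its relative Nfe2l2 was the lowest (−0.06), and Pomp, the maturation factor of the core, was at 284 and 278 CPM. Of 10 proteasome-bound proteins 2 were higher: Zfand5 (0.37) and Sem1 (0.36), a small subunit of the 19S lid, with Ube3c the lowest (−0.16). Of the ubiquitin genes, Ubb was the highest (0.16), and 0 of 5 were higher past the limit.

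Over 20 points (10 cell types in 2 libraries), the genes outside the family with levels most like the summed Psmb8, Psmb9 and Psmb10 were Actr3 (Pearson r 0.949), Phf11b (0.945), Sh3bp1 (0.943), Tap2 (0.905) and Gmip (0.903) of 6669 genes ranked. Tap1 followed at 0.899, and within the family Psme1 reached 0.70, Psme2 0.68 and Psmb10 0.69, while Psmb5 was at 0.02. Psmb10 is itself part of the sum. Mast cells, the lowest points for that sum, rested on 48 UMIs of it in WT and 13 in KO. Points from the same library share depth and the 2 libraries share their cell types, so these values only describe the likeness.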

How the data were processed

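Each sample was 1 single-cell RNA library prepared on SeekOne MM microwell chips, per the labels' protocols. The deposited files hold raw UMI counts per gene and cell made with Cell Ranger 8.0.1, per the file headers; mm10 and Seurat 3 are named in the submitters' processing notes, and no source used here states the counting rule or annotation. Cells with at least 500 UMIs, 200 genes and at most 25% mitochondrial UMIs were kept. The doublet caller marked 0 and 1 cells, so the top 5% of its scores were left out instead (457 and 319 cells). Counts were summed per library and cell type, given as CPM of all UMIs, with exact Poisson and exact Clopper-Pearson binomial intervals at 95%; log2 ratios used CPM + 5. The intervals cover counting error only. The fold step of all cells was tested on simulated data: of 100 genes planted 2-fold up 96 were called, of 100 planted 2-fold down 76, and of 13606 unchanged genes 0.

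Cell types were gated on marker counts set after the data were seen: for example 6 of 12 macrophage markers, 4 of 8 T cell markers and 3 of 9 NK markers. Cells passing 2 lineages (736 and 429) and those passing none (504 and 475) stayed out of the types. Leiden clusters were made with Scanpy 1.11.5, without members. Sex type was read from Xist and 4 Y-linked genes. In a cell type, genes needed 50 UMIs in all and detection in 5% of that type's cells in either library.

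The members, gene lists, gates and alternatives were chosen with earlier results of these data known. Named genes were the catalytic, PA28, regulator and Psmg genes whatever their value, the 5 highest and 5 lowest other members, fixed pathway genes with the extremes of each list, and the 5 genes most like the immune sum; some of these are not reported here. Alternatives covered the cell filter, doublets, scaling, pseudocount, folds, gates, depth and sex type.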

Additional observations from a re-analysis of the deposited data

How the results depend on the processing

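No paired analysis was possible because each group has 1 library. Of 69 alternative values, 44 stayed within the counting interval of the reported one (for counts of members, within 1.5 times), 23 moved outside it and 2 changed sign. The 44 include counts of 0 members that a stricter fold or a higher UMI minimum could not change. The female-type settings, the fold of 1.1, the common bin limits and the runs without a cluster or without mast cells were chosen after seeing the data, as was the sex-type difference. With male-type cells alone, the 5 immune genes differed by −0.029 over all cells and by 0.0226 in macrophages (log2, reported as −0.22 and −0.21). The medians over all genes were then −0.066 and −0.063. The constitutive genes differed by −0.0244 (reported as 0.03), and the immune share was 71.2% in WT and 70.7% in KO. Of mesenchymal cells, 6.21% in WT and 1.94% in KO were male-type, so this setting left most of them out. With female-type KO cells against all WT cells, the values were −0.31 and −0.36 for the immune genes, 0.0699 for the constitutive genes and 63.8% for the share, and 3 members were lower past the fold limit. Totals without mitochondrial and the most abundant genes gave 1 member lower and −0.23 in macrophages, median gene ratio scaling gave −0.19 over all cells, and leaving out the cluster led by Cxcl3 and Slpi gave −0.19 in macrophages. A fold of 1.1 gave 9 members lower and 5 higher. Thinning every cell to 1000 UMIs gave a WT share of 71.1%.

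The highest minus the lowest type differed by 41.5 points in WT and 51.4 in KO. It was 26.2 and 26.3 points with 1 more marker asked for, which leaves too few mast cells, and 26.6 and 26.7 without mast cells. With Leiden clusters in place of gates it was 34.3 and 35.5 points, over 8 types. These last values counted as within the interval. For a difference of shares that interval joined the opposite ends of separate intervals, so it is wide. The top minus the bottom interferon bin was 12.7 points in WT and 23.03 in KO, 10.7 and 18.3 with 3 bins, and 8.88 and 15.8 after thinning. Female-type minus male-type KO macrophages was −8.81 points, and between −8.97 and −7.84 under the alternatives tried. Types with under 200 cells, such as mast cells and regulatory T cells, are limited by their UMIs.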
